A study of Homo sapiens with 27 samples.

Results

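The effect of adding epidermal growth factor (EGF) to cells that received oncostatin M (OSM) was read from 6 of the 27 RNA-seq libraries of the series: 3 of cells given EGF and OSM together and 3 of cells given OSM alone, chosen by their labels. The cells were MCF10A, an established line of non-tumorigenic human breast epithelium. All groups shared the same history. Cells grew in medium that held insulin (10 µg/ml), cholera toxin (100 ng/ml), hydrocortisone (0.5 µg/ml), EGF itself (20 ng/ml) and 5% horse serum. For the experiment 520000 were seeded, and 6 h later they went into medium without growth factors for 18 h. Ligands were then given at 10 ng/ml each in fresh growth factor-free medium, and RNA was collected 24 h later. For comparison, 6 libraries of EGF and phosphate-buffered saline (PBS) gave the effect of EGF without OSM. A further 6, with transforming growth factor beta (TGFB) added to both sides (EGF+OSM+TGFB and OSM+TGFB), gave it with another ligand present. The series asks whether such signals combine additively. All cells are of 1 line, and the labels do not say whether the 3 libraries of a group came from separate cultures, so p-values measure the spread between these libraries.

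EGF binds the receptor EGFR and switches on the RAS-ERK and PI3K-AKT pathways. MCF10A cells depend on it for growth. OSM is a cytokine of the interleukin-6 family. It binds OSMR or LIFR paired with the shared chain gp130 (gene IL6ST), which carries Janus kinases that phosphorylate STAT3. STAT3 induces its own inhibitor SOCS3 and, in liver and in epithelia, the acute-phase and complement genes. In the mammary gland, STAT3 signalling is best known from involution after weaning, when milk-producing epithelium is removed.

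Totals of the 6 libraries ran from 35.2 to 46.6 M counts (M for mega), within the 30.1 to 52.9 M of the series. Replicates differed by more than sampling noise (chi-square per degree of freedom 9.63 to 33.1, the highest between OSM libraries 2 and 3), and log2 levels correlated at 0.985 to 0.989. OSM libraries 2 and 3 lay at opposite ends of the OSM group for many genes below, and values without either are given for part of the results. Levels are given as CPM, a gene's count per 1 M counts of its library after TMM scaling of library sizes. The 5 basal markers (KRT5, KRT14, KRT15, KRT17, TP63) summed to 16800 to 17100 CPM with OSM and 9380 to 10100 CPM with EGF+OSM. Both groups thus held basal markers at high levels. The 7 luminal markers summed to 1080 to 1340 CPM and 841 to 989 CPM, with PGR at 0, MUC1 and GATA3 lower and KRT18 higher. The 5 mesenchymal markers summed to 947 to 1140 CPM and 1190 to 1390 CPM, with VIM, ZEB1 and SNAI2 higher and ZEB2 lower. The 10 markers of blood, endothelial and stromal cells summed to 146 to 191 CPM and 35.6 to 44.8 CPM. Most of that sum was DCN, CD14 and COL1A1, while PTPRC, CD3E, CDH5 and COL3A1 averaged at most 0.0686 CPM in either group. The mean share of mitochondrial transcripts was 1.83% ± 0.129 with OSM and 1.44% ± 0.140 with EGF+OSM, and that of ribosomal protein transcripts 8.19% ± 0.334 and 6.26% ± 0.0265 (SD, n = 3). The part of these shifts in the results below was not tested. In such bulk RNA, fewer cells of a kind and less RNA per cell cannot be told apart.

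Adding EGF to OSM changed 9874 of 16611 tested rows of the count table, taking rows below 0.05 after Benjamini-Hochberg adjustment of quasi-likelihood p-values from edgeR: 4771 were higher (28.7%) and 5103 lower (30.7%). Large changes were mostly falls. At least 2-fold higher were 666 rows (4.01%) against 1708 at least 2-fold lower (10.3%), and at least 4-fold higher were 106 against 640. The median log2 fold change of all rows was -0.03. With upper-quartile scaling it was -0.07, and the share of called rows that were higher was 44.8% in place of 48.3%. That share was 51.2% with DESeq2, 50.8% with no filter on low counts and 50.7% to 51.5% without any 1 of the OSM libraries, so which direction held the majority of calls depended on the setting. These shares are the background for the member counts given below.

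**Figure D1:**
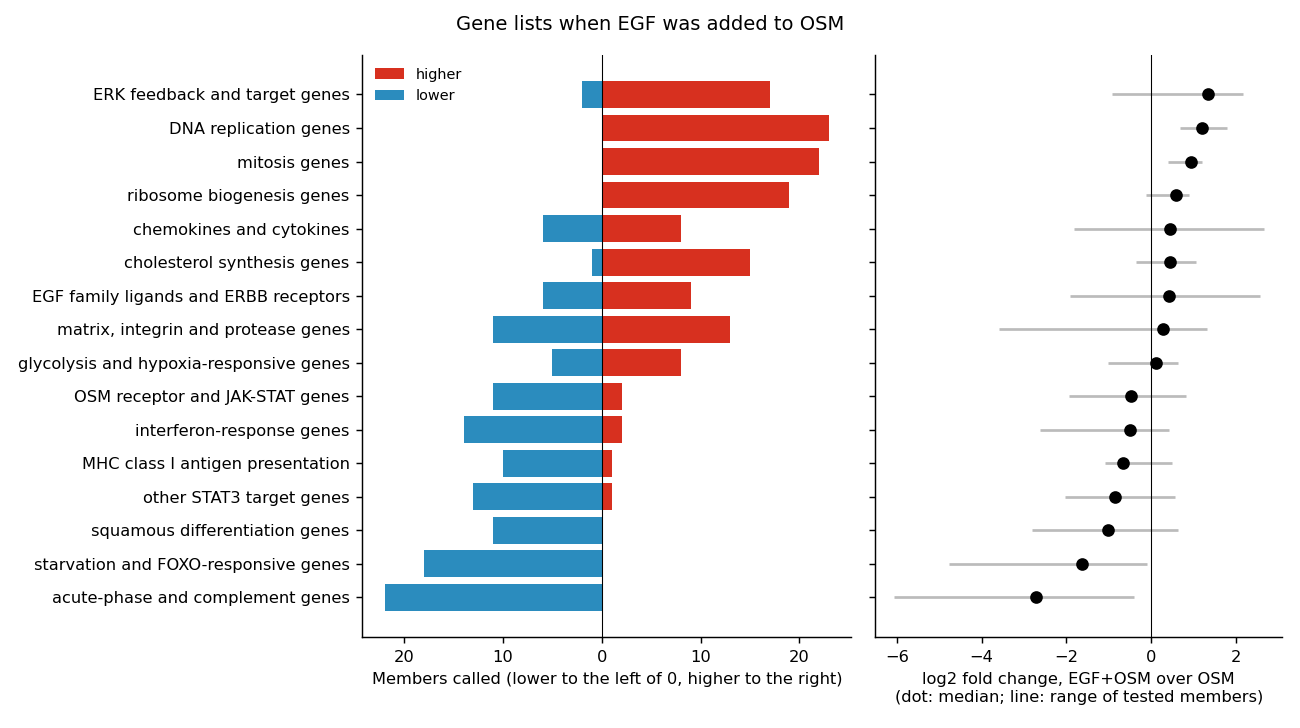
Left: number of members of 16 gene lists called higher (right of 0) or lower (left of 0) in EGF+OSM against OSM, 3 libraries a group. Right: median log2 fold change of the tested members (dot) and their range (line). Acute-phase and starvation lists sit lowest, with medians of -2.72 and -1.64, and ERK and DNA replication lists highest, with 1.34 and 1.2.

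Genes that ERK signalling induces rose on top of OSM. Of the 20 genes of the ERK list, 17 were higher and 2 lower, with a median log2 fold change of 1.34. SPRY4, a Sprouty inhibitor of receptor tyrosine kinase signalling (chr5:142310427-142326455, minus strand, GENCODE v44 on GRCh38, as for all gene spans here), stood at 18.9, 12.6 and 26.0 CPM in OSM libraries 1, 2 and 3 and at 90.7, 80.3 and 88.8 CPM in EGF+OSM. The groups did not overlap, and OSM library 2 was the lowest. The log2 fold change was 2.18 ± 0.18 (SE), adjusted p = 1.59e-09. DUSP6, the phosphatase that removes phosphate from ERK (chr12:89347235-89352501, minus), went from 68.7, 49.8 and 81.1 CPM to 158, 137 and 148 CPM, again without overlap (1.15 ± 0.16, adjusted p = 3.99e-06). OSM alone already held DUSP6 far above PBS, where it averaged 5.39 ± 0.377 CPM. The ETS factors ETV4 and ETV5, induced by ERK, rose by 2.10 and 1.88 on the log2 scale, from means of 4.30 and 13.0 CPM to 18.4 and 47.6 CPM. FOSL1, an AP-1 subunit (chr11:65892049-65900573, minus), went from 41.8, 36.9 and 49.5 CPM to 127, 109 and 134 CPM, so that every EGF+OSM library was above every OSM library (1.53 ± 0.12). CCND1, the G1 cyclin D1, went from a mean of 40.4 to 118 CPM (1.54 ± 0.13) and DUSP4 from 47.3 to 167 CPM (1.82 ± 0.15).

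The immediate-early factor EGR1 went the other way. Its level was 111, 83.7 and 116 CPM with OSM and 56.4, 53.7 and 55.9 CPM with EGF+OSM, with no overlap (log2 fold change -0.91 ± 0.17, adjusted p = 8.09e-05). Added to PBS, EGF raised EGR1 by 1.87, from a mean of 29.5 to 108 CPM. FOS was also lower (-0.36). MYC stood at 384, 398 and 362 CPM with OSM and 393, 384 and 396 CPM with EGF+OSM, overlapping groups (0.04 ± 0.09, adjusted p = 0.747).

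EGF's own relatives split by role. Of 16 tested genes for EGF family ligands, ERBB receptors and their regulators, 9 were higher and 6 lower, with ERBB4 too low to test (median 0.42, and 0.24 when only the 6 libraries were fitted). The 8 ligands tested were all among those higher. AREG, the EGFR ligand amphiregulin (chr4:74445136-74455005, plus), rose from 56.8, 42.3 and 80.4 CPM to 374, 312 and 384 CPM without overlap (2.58 ± 0.23, adjusted p = 8.06e-09). TGFA, which encodes transforming growth factor alpha, another EGFR ligand (chr2:70447284-70554193, minus), rose from 71.1, 64.0 and 88.9 CPM to 267, 241 and 246 CPM (1.75 ± 0.09, adjusted p = 4.74e-13). All 3 EGF+OSM libraries were above all OSM libraries. For TGFA the response was larger than without OSM, where EGF raised it by 0.70 (difference of the log2 fold changes 1.05 ± 0.12, adjusted p = 3.5e-07). NRG1, a ligand of ERBB3 and ERBB4, rose by 2.03 ± 0.20. Among receptors, EGFR stayed at 508, 509 and 547 CPM against 495, 530 and 511 CPM, overlapping groups (-0.03 ± 0.05, adjusted p = 0.698). ERBB3 fell from 43.4, 50.4 and 30.6 CPM to 10.8, 12.7 and 9.54 CPM (-1.91 ± 0.17, adjusted p = 3.74e-09), and ERBB2 fell by 0.68. ERRFI1, an intracellular inhibitor of EGFR, fell from 261, 302 and 210 CPM to 91.2, 93.0 and 74.9 CPM without overlap (-1.58 ± 0.14, adjusted p = 3.93e-09).

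Genes of DNA replication and mitosis rose, from levels that OSM alone had already lifted. All 23 tested DNA replication genes were higher (range 0.68 to 1.79, median 1.2), and 22 of 24 mitosis genes were (median 0.94), against 28.7% of all rows. MCM10, which helps to start replication forks (chr10:13161558-13211110, plus), went from 15.8, 14.9 and 25.7 CPM with OSM to 61.5, 62.5 and 71.3 CPM with EGF+OSM. The groups did not overlap, with OSM library 3 the highest of its group (1.79 ± 0.22, adjusted p = 7.37e-07). CDC6, a replication licensing factor, went from 25.2, 23.4 and 36.4 CPM to 81.9, 86.3 and 97.7 CPM (1.65 ± 0.19, adjusted p = 1.83e-07). MKI67, which encodes the proliferation antigen Ki-67 (chr10:128096659-128126423, minus), went from 291, 264 and 371 CPM to 563, 646 and 693 CPM, without overlap (1.04 ± 0.21, adjusted p = 0.000315). Means in PBS were 0.952 CPM for MCM10, 3.69 CPM for CDC6 and 21.5 CPM for MKI67. The mitotic kinase AURKB and the transcription factor MYBL2 rose by 1.16 and 1.21. TOP2A and KIF20A, the mitosis genes that did not pass the test, had log2 fold changes of 0.40 each (adjusted p 0.0597 and 0.0878). Without OSM library 3 the medians of the replication and mitosis lists were 1.41 and 1.12.

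Most of the replication genes carry the E2F motif, the site through which E2F factors and their repressor RB control S-phase genes, just before their start. The motif was searched on both strands as TTTGGCGC or TTTCCCGC in the RefSeq window from 250 bases before to 50 after each start (GRCh38.p14, 11408 of 14872 tested symbols matched). It stood in 13 of the 20 replication genes with a window and in 3.55% of all windows. The window held it in 8.78% of genes at least 2-fold higher and in 2.67% of those at least 2-fold lower. The 250 bases before the start of 3 minichromosome maintenance genes, the replicative helicase subunits, are shown because all 3 rose together, with the motif or its reverse complement in capitals. They were taken in list order after the values had been seen: MCM3 (chr6:52284743-52284992, minus), MCM6 (chr2:135876444-135876693, minus) and MCM7 (chr7:100101398-100101647, minus).
MCM3: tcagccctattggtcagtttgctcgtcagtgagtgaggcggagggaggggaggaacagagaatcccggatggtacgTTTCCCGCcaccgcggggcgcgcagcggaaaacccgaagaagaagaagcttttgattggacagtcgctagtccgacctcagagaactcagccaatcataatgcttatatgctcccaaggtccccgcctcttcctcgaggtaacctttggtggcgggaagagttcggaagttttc
MCM6: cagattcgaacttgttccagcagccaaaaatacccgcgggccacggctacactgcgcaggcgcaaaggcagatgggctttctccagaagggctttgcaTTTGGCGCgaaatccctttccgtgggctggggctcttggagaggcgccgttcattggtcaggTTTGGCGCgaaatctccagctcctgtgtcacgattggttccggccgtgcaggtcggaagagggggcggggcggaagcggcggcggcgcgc
MCM7: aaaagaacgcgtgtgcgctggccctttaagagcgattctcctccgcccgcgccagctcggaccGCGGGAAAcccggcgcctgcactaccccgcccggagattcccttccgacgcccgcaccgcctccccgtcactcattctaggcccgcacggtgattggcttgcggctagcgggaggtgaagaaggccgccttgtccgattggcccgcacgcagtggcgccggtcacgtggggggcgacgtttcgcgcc
MCM6 holds 2 matches, 152 and 90 bases before its start. MCM3 went from 104, 98.7 and 142 CPM to 220, 206 and 244 CPM (0.96 ± 0.13). MCM6 went from 61.8, 56.8 and 91.2 CPM to 145, 145 and 159 CPM (1.1 ± 0.15), and MCM7 from 110, 103 and 133 CPM to 232, 210 and 244 CPM (0.99 ± 0.11). In none of the 3 did the groups overlap.

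**Figure D2:**
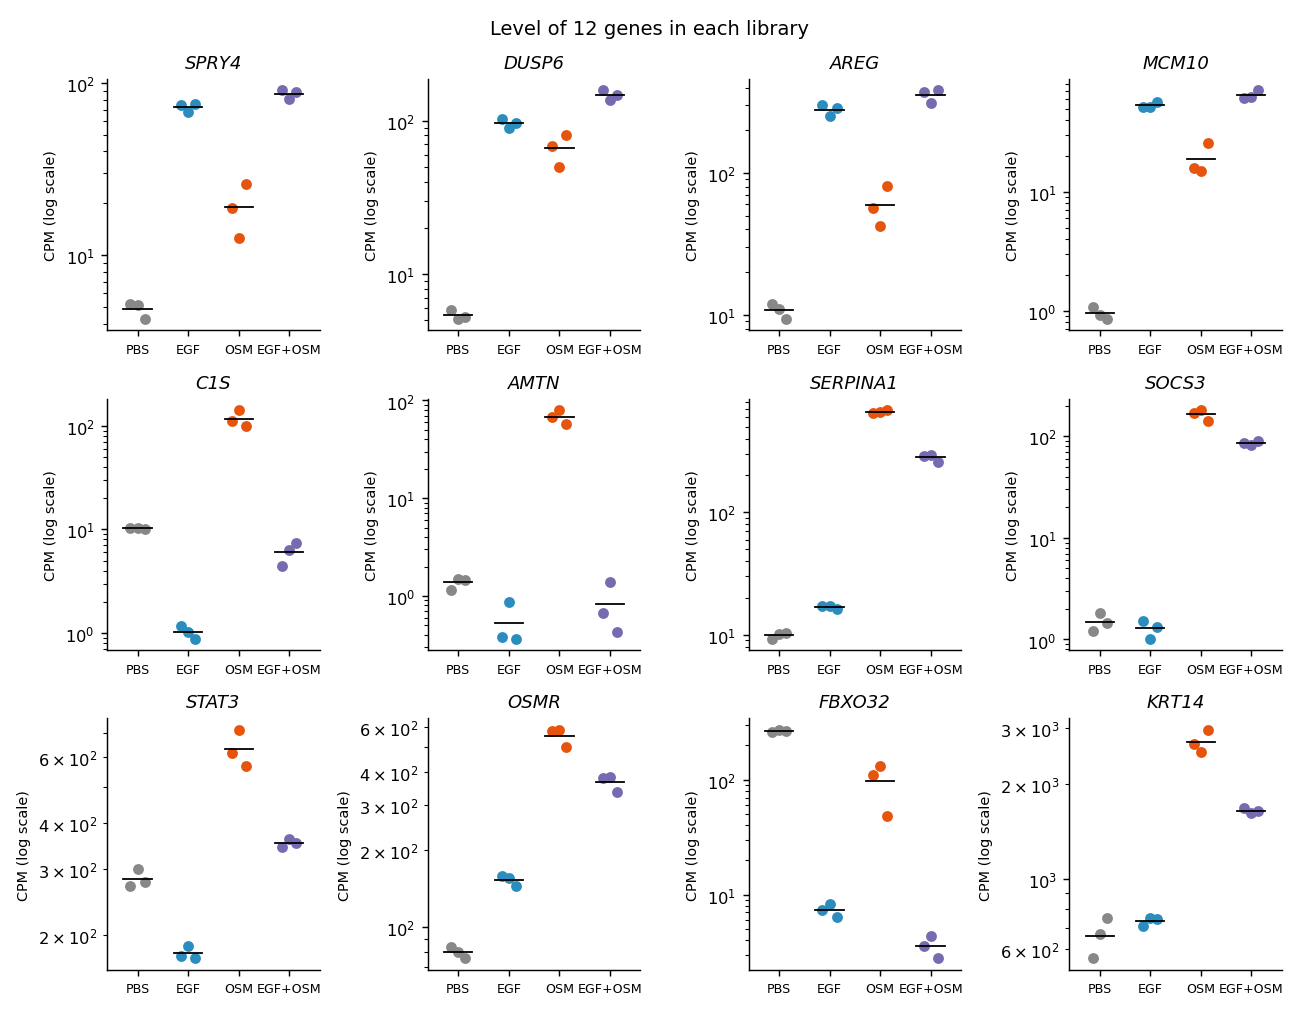
Level of 12 genes in each library (dots; CPM on a log axis, its range set per gene) in PBS, EGF, OSM and EGF+OSM, with the mean of 3 libraries as a line. The 4 genes of the top row are higher in EGF+OSM than in OSM, and the other 8 are lower, with the EGF+OSM mean of C1S, AMTN and FBXO32 also below that of PBS.

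On the OSM side, OSMR, STAT3 and SOCS3 fell, with means that stayed above those of PBS. The list of OSM receptor and JAK-STAT genes had 11 lower and 2 higher of 21, with a median of -0.46 (-0.27 without OSM library 1). Added to PBS, EGF lowered 11 of the 21 and raised 6 (median -0.24). STAT3 (chr17:42313324-42388540, minus) fell from 615, 712 and 570 CPM with OSM to 344, 363 and 354 CPM with EGF+OSM. The groups did not overlap (-0.84 ± 0.06, adjusted p = 1.6e-10). EGF lowered STAT3 on PBS too (-0.66), and the difference did not pass the test (-0.18 ± 0.09, adjusted p = 0.135). SOCS3, the feedback inhibitor of gp130 (chr17:78356778-78360077, minus), fell from 169, 182 and 143 CPM to 86.0, 82.2 and 90.4 CPM, again without overlap (-0.94 ± 0.11, adjusted p = 1.18e-07). In PBS and EGF it averaged 1.49 and 1.28 CPM, and the difference between both EGF effects was -0.7 ± 0.25 (adjusted p = 0.0322). OSMR, the receptor chain specific for OSM (chr5:38845858-38945596, plus), fell from 577, 586 and 503 CPM to 381, 384 and 336 CPM (-0.60 ± 0.07, adjusted p = 1.09e-07). For OSMR the sign depended on OSM: added to PBS, EGF raised it by 0.93, from a mean of 79.8 to 153 CPM. The difference between both EGF effects was -1.53 ± 0.10 (adjusted p = 2.86e-11).

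Other members of the cascade differed in size and direction. STAT5A, the STAT of prolactin signalling, fell from 14.4, 22.9 and 14 CPM to 4.61, 4.31 and 4.63 CPM (-1.93 ± 0.16), and LIFR, the other partner of gp130 for OSM, from 23.7, 23.9 and 18.7 CPM to 7.86, 8.61 and 7.08 CPM (-1.49 ± 0.13). Both falls were without overlap. On PBS, EGF lowered STAT5A by 2.26 and LIFR by 1.22, and neither difference passed the test (adjusted p = 0.277 and 0.269). IL6R, the interleukin-6 receptor, fell by 1.29 and JAK1 by 0.51. IL6ST stood at 187, 194 and 199 CPM and at 198, 193 and 199 CPM, overlapping groups (0.02 ± 0.05, adjusted p = 0.733). Its sign flips with upper-quartile scaling. SOCS2, an inhibitor of growth hormone signalling, rose from 18.5, 18.5 and 19.9 CPM to 32.8, 32.5 and 34.7 CPM (0.82 ± 0.07), and JAK2 by 0.48.

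The acute-phase and complement genes showed the deepest falls of any list. Of 26 genes, CP, ORM1 and CRP were too low to test. Of the other 23, 22 were lower and 0 higher, 21 of them at least 2-fold, with a median of -2.72 and a range of -6.08 to -0.40, where 30.7% of all rows were lower and 10.3% at least 2-fold lower. A2M missed the threshold (adjusted p = 0.537). C1S, a protease of the classical complement pathway (chr12:6988259-7071032, plus), stood at 111, 143 and 99.0 CPM with OSM and at 4.39, 6.29 and 7.46 CPM with EGF+OSM. The groups lay far apart, and EGF+OSM was below PBS, which averaged 10.3 ± 0.175 CPM (-4.28 ± 0.16, adjusted p = 2.5e-14). Its partner C1R fell in the same way, from 185, 234 and 150 CPM to 8.40, 9.34 and 10.1 CPM (-4.35 ± 0.14, adjusted p = 4.67e-15). C1R has 2 tested rows in the table, of which the one with more counts is given. HP, the haemoglobin-binding haptoglobin (chr16:72054505-72061055, plus), fell from 54.2, 106 and 67.4 CPM to 1.41, 3.05 and 2.45 CPM (-5.03 ± 0.39, adjusted p = 1.31e-09). In PBS and EGF its mean was 0.0576 and 0.0438 CPM, so that the EGF+OSM libraries remained above both groups without OSM.

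SERPINA3, the acute-phase protease inhibitor antichymotrypsin (chr14:94612384-94624055, plus), fell from 2690, 3870 and 1860 CPM to 419, 588 and 330 CPM, against a PBS mean of 587 CPM (-2.65 ± 0.33, adjusted p = 9.5e-07). The groups did not overlap. SERPINA1, the elastase inhibitor antitrypsin (chr14:94376747-94390693, minus), stayed far above PBS although it fell: 651, 659 and 686 CPM with OSM, 287, 296 and 259 CPM with EGF+OSM, and a PBS mean of 9.99 CPM (-1.25 ± 0.08, adjusted p = 1.3e-11). EGF raised SERPINA1 by 0.75 when added to PBS, and the difference was -1.99 ± 0.12. C3, the central complement component, fell from 786, 1080 and 695 CPM to 189, 236 and 210 CPM (-2.01 ± 0.17), close to the fall on PBS (-2.03, difference 0.02 ± 0.23, adjusted p = 0.957). Serum amyloid genes fell as well: SAA2 from a mean of 462 to 56.3 CPM (-3.04 ± 0.27) and SAA1 from 388 to 70.1 CPM (-2.47 ± 0.20). The falls of C4B (-6.08) and SAA4 (-5.60) started from means of 3.58 and 2.96 CPM and ended near 0.05 CPM. C4B and C4A are near-identical, and C4B, CFB and SAA1 have several rows for copies on alternate loci, so their separate values are uncertain. LCN2, which encodes the iron-binding lipocalin, was lower (-1.29 ± 0.39, adjusted p = 0.00758) although its groups overlapped, at 25.9, 42.3 and 13.6 CPM and at 11.2, 16.1 and 6.15 CPM.

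Of 16 other STAT3 target genes, 13 were lower and 1 was higher (median -0.86). Added to PBS, EGF lowered 9 of the 16 and raised 5 (median -0.6). BCL6, a transcriptional repressor (chr3:187721377-187745725, minus), fell from 93.5, 104 and 64.9 CPM to 20.9, 22.5 and 21.2 CPM, without overlap (-2.03 ± 0.13, adjusted p = 2.3e-11). OSM itself had not raised it, with means of 105 CPM in PBS and 87.6 CPM in OSM. On PBS, EGF lowered BCL6 by more (-2.84, difference 0.81 ± 0.18, adjusted p = 0.000901). FGL1, a fibrinogen-like liver protein, fell from 29.0, 35.5 and 29.8 CPM to 6.20, 8.24 and 10.0 CPM (-1.95 ± 0.23), while PBS and EGF held 3 counts and 1 count over their 3 libraries. PIM1, a survival kinase, fell by 1.5 and TIMP1, an inhibitor of metalloproteinases, by 0.91, from 2210, 1960 and 2490 CPM to 1280, 1170 and 1110 CPM. TIMP1 was raised by EGF on PBS (2.21), with a difference of -3.11 ± 0.12. HIF1A, the hypoxia factor (chr14:61695513-61748259, plus), fell from 1030, 1110 and 1040 CPM to 539, 585 and 574 CPM (-0.90 ± 0.05, adjusted p = 4.99e-13), against a rise of 0.23 on PBS. MCL1, which keeps cells from apoptosis, was the member that rose, from a mean of 721 to 1070 CPM (0.57 ± 0.06).

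Several genes that fell had the STAT motif TTCNNNGAA in the RefSeq window, among them CFB, LRG1, SESN3, IFITM1, LIFR and EGR1. The 250 bases before the start are shown for 2 more, those with the deepest falls among the motif holders that the rule for named genes took (it left out CFB, SESN3, LRG1 and IFITM1, which fell further than BCL6): DIO2 (chr14:80211505-80211754, minus) and BCL6 (chr3:187745469-187745718, minus), with the motif in capitals.
DIO2: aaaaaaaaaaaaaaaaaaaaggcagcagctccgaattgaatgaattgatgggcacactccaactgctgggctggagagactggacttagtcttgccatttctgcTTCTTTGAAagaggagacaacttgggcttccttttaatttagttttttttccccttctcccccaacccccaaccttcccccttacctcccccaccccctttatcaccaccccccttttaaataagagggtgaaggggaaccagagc
BCL6: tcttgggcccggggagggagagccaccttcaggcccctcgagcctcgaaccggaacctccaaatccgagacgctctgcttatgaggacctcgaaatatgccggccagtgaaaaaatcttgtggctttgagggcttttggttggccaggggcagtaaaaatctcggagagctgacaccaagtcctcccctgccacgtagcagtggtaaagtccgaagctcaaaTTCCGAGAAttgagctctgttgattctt
The BCL6 window has 4 matches, and only the match wholly before the start is in capitals, 28 bases upstream. DIO2, the deiodinase that activates thyroid hormone, fell from 23.1, 30.6 and 13.6 CPM to 0.596, 1.89 and 0.733 CPM (-4.37 ± 0.37, adjusted p = 1.61e-09). The groups did not overlap. The motif stood in 6.30% of all windows, in 6.31% of those of genes at least 2-fold higher and in 7.18% of those at least 2-fold lower, and in 3 of the 14 acute-phase genes with a window (CFB, FGA and LRG1). AP-1 (TGANTCA) stood in 5.15%, 6.76% and 9.02%, in the same order, and the ETS motif CCGGAAGT in 8.15%, 4.28% and 1.2%. These letters are descriptions of a short window.

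Interferon-response genes were lower more often than higher. Of 24, 14 fell and 2 rose, with a median of -0.50 (-0.33 without OSM library 2). Added to PBS, EGF also lowered 14 of the 24 and raised 4 (median -0.85). Most of the 24 were at low levels. IFI44L fell from 11.7, 14.2 and 10.1 CPM to 2.03, 1.89 and 1.90 CPM (-2.63 ± 0.15, adjusted p = 2.43e-12) and the antiviral RSAD2 from 1.59, 2.68 and 1.62 CPM to 0.190, 0.629 and 0.228 CPM (-2.47 ± 0.39, adjusted p = 9e-06), both without overlap. IFITM1, which blocks viral entry, fell from a mean of 9.82 to 2.14 CPM (-2.20). OAS3, a sensor of double-stranded RNA, rose from 60.7, 62.4 and 69.9 CPM to 86.5, 86.1 and 88.2 CPM (0.43 ± 0.08). HERC5, an interferon-induced ligase, rose from a mean of 2.54 to 3.36 CPM (0.41 ± 0.16, adjusted p = 0.0366, a call lost in 6 alternatives: 0.0679 with no filter on low counts, 0.055 with upper-quartile scaling, and 0.0567 to 0.111 without OSM library 2 or 3 or EGF+OSM library 1 or 3). Of 14 genes of antigen presentation by class I of the major histocompatibility complex (MHC), 10 fell and 1 rose (median -0.66). On PBS, EGF also lowered 10 of the 14 and raised 1 (median -0.84). TAP1, which pumps peptides into the endoplasmic reticulum, fell from 46.0, 56.6 and 41.9 CPM to 25.1, 27.2 and 26.3 CPM (-0.88 ± 0.12), and B2M, the light chain of the MHC molecule, from 476, 545 and 489 CPM to 360, 370 and 380 CPM (-0.44 ± 0.07). PSMB9 and HLA-F fell by 1.08 and 1.01. TAP1, HLA-B, PSMB9 and HLA-F have rows for several alternate loci. NLRC5, an activator of class I genes, rose by 0.25 (adjusted p = 0.0299, lost in 5 alternatives, with 0.0714 under upper-quartile scaling and 0.123 without OSM library 2).

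The interferon-stimulated response element, bound by interferon-activated factors and searched on both strands as a pair of GAAA blocks with any 2 bases between them, stood in 12 of 18 interferon windows, 6 of 11 class I windows and 2.95% of all. The 2 examples, taken in list order after their values were seen, show it as a run of overlapping or repeated matches, in capitals: ISG15 (chr1:1013247-1013496, plus) and IFI6 (chr1:27672193-27672442, minus).
ISG15: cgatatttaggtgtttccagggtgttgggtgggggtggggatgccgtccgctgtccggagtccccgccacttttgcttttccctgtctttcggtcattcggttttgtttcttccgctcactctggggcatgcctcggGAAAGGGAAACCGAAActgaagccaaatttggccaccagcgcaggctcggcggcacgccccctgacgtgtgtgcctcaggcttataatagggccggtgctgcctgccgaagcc
IFI6: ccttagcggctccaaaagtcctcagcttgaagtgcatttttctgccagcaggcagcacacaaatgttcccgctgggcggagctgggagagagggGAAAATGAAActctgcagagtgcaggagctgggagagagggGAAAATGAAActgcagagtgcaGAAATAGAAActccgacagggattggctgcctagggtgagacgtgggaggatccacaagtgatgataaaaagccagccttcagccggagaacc
ISG15, a ubiquitin-like modifier, went from 2.90, 2.79 and 2.65 CPM to 2.30, 1.75 and 1.34 CPM (-0.63 ± 0.18, adjusted p = 0.00343), and IFI6 from 3.19, 3.12 and 2.05 CPM to 2.41, 1.98 and 1.52 CPM (-0.50 ± 0.20, adjusted p = 0.0303). The groups overlapped for IFI6 and not for ISG15.

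Genes of starvation and of FOXO factors, which PI3K-AKT signalling keeps out of the nucleus, fell together. Of 20, 18 were lower and 0 higher, 14 of them at least 2-fold (median -1.64). FBXO32, the ubiquitin ligase atrogin-1 of muscle wasting, stood at 110, 133 and 48.3 CPM with OSM and at 3.58, 4.33 and 2.78 CPM with EGF+OSM. OSM library 3 was well below the other OSM libraries but above all EGF+OSM libraries (-4.76 ± 0.35, adjusted p = 8.04e-10). PIK3IP1, an inhibitor of PI3K (chr22:31281594-31292534, minus), fell from 33.3, 35.6 and 20.0 CPM to 2.60, 3.24 and 1.87 CPM (-3.52 ± 0.33, adjusted p = 1.69e-08). PDK4, which holds back pyruvate oxidation (chr7:95583499-95596516, minus), fell from 61.2, 70.2 and 44.4 CPM to 7.94, 8.52 and 5.61 CPM (-2.99 ± 0.20, adjusted p = 1.96e-10). Neither pair of groups overlapped. For PDK4 the fall on PBS was larger (-4.50, from a mean of 480 CPM, difference 1.51 ± 0.27), whereas for FBXO32 it was -5.18 (difference 0.42 ± 0.47, adjusted p = 0.534). The stress-response gene SESN3 fell by 2.41 and the autophagy kinase ULK1 by 1.97. ARRDC4 and CCNG2 did not pass the test (-0.34 and -0.10).

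Growth-related lists rose by less. Of 20 ribosome biogenesis genes, 19 were higher (median 0.59) and NOB1 was not called (-0.12). RRP9, a component of the ribosomal RNA processing machinery, went from 30.8, 28.9 and 34.2 CPM to 61.4, 53.4 and 61.7 CPM (0.91 ± 0.09, adjusted p = 3.8e-09) and NOP16 from 59.5, 58.8 and 70.0 CPM to 115, 110 and 121 CPM (0.88 ± 0.09). Both were without overlap. Of 19 tested cholesterol genes, 15 were higher and 1 was lower (median 0.46). INSIG1, a feedback regulator of the pathway, went from 21.2, 21.3 and 31.7 CPM to 45.9, 58.4 and 51.2 CPM (1.07 ± 0.16), and HMGCS1, an early enzyme, rose by 0.85. SREBF2, which encodes the pathway's transcription factor, fell from 293, 303 and 309 CPM to 242, 237 and 224 CPM (-0.36 ± 0.06). Of 18 glycolysis and hypoxia genes, 8 were higher and 5 lower, against 28.7% and 30.7% of all rows. Their median was 0.11, and 0.16 without OSM library 3. The hypoxia-responsive EGLN3, PFKFB4 and NDRG1 fell by 1.02, 0.98 and 0.97, while PFKP, a glycolytic enzyme, and ADM, a vasodilator peptide, rose by 0.55 and 0.65.

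Squamous and basal keratinocyte genes were lower or not called. Of 22 tested squamous differentiation genes, 11 fell and 0 rose (median -1.01). Added to PBS, EGF lowered all 22 (median -1.74). LOR was not found by symbol and TGM3 was too low to test. OVOL1, a transcription factor of epidermal differentiation (chr11:65787063-65797214, plus), fell from 7.11, 8.37 and 6.78 CPM to 1.35, 1.30 and 1.09 CPM (-2.57 ± 0.22, adjusted p = 1.29e-09). GRHL3, which drives barrier formation, fell from 26.7, 30.9 and 23.7 CPM to 7.51, 9.55 and 6.27 CPM (-1.80 ± 0.15), and KRT10, a keratin of suprabasal layers, from 55.1, 80.3 and 62.5 CPM to 19.7, 21.0 and 20.8 CPM (-1.69 ± 0.27). In these 3 genes the groups did not overlap. OSM alone had already brought KRT10 from a PBS mean of 3170 CPM to 66.0 CPM. DSG1, a desmosomal cadherin, was also called lower, at 0.114, 0.199 and 0.270 CPM against 0.0542, 0 and 0.0253 CPM, but EGF+OSM held 3 counts in all. IVL, which encodes the cornified envelope protein involucrin, had overlapping groups (0.29, adjusted p = 0.244). Of the basal keratins, KRT14 (chr17:41582279-41586895, minus) fell from 2670, 2510 and 2960 CPM to 1670, 1610 and 1640 CPM (-0.73 ± 0.10, adjusted p = 1.15e-06), and KRT5 from a mean of 7050 to 5350 CPM (-0.40 ± 0.06). On PBS the change of KRT14 was 0.16 (adjusted p = 0.155), and the difference was -0.89 ± 0.14 (adjusted p = 2.11e-05). TP63, the master factor of basal epithelium, fell by 0.43, and CDH1, which encodes E-cadherin, from 276, 318 and 243 CPM to 185, 212 and 143 CPM (-0.64 ± 0.13). EPCAM, the other pan-epithelial marker, rose from 6.37, 6.95 and 5.73 CPM to 10.8, 11.7 and 12.9 CPM without overlap (0.89 ± 0.13, adjusted p = 3.28e-06).

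Matrix, integrin and protease genes split, 13 higher and 11 lower of 27, against 28.7% and 30.7% of all rows. Their median was 0.29, with 0.13 without EGF+OSM library 1 and 0.18 without OSM library 2. THBS1, which encodes the matricellular thrombospondin 1, rose from 304, 245 and 489 CPM to 952, 755 and 898 CPM (1.33 ± 0.22, adjusted p = 2.93e-05), and the laminin chains LAMA3 and LAMB3 rose by 0.43 and 0.48. FN1, which encodes fibronectin (chr2:215360440-215436073, minus), fell from 420, 344 and 304 CPM to 87.2, 88.5 and 52.9 CPM, below PBS, without overlap (-2.22 ± 0.18, adjusted p = 2.33e-09). The collagenase MMP13 and the stromelysin MMP3 fell by 3.59 and 3.47, MMP13 from a mean of 1.04 to 0.0822 CPM and MMP3 from 10.0, 11.4 and 6.46 CPM to 0.732, 0.698 and 1.09 CPM. TNC, which encodes tenascin C, fell from a mean of 713 to 380 CPM (-0.91), still above its PBS mean of 12.5 CPM. The collagenase MMP1 was called higher at 0.284, 0.310 and 0.432 CPM against 0.840, 0.698 and 0.708 CPM (1.12 ± 0.39, adjusted p = 0.0178, which became 0.0567, 0.0549 and 0.0514 without OSM library 1, OSM library 2 or EGF+OSM library 1).

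Of the chemokines and cytokines, TNF and CXCL6 were not tested. The other 21 had 8 higher and 6 lower, where 28.7% and 30.7% of all rows were. Of these 21, 8 were at least 2-fold higher and 5 at least 2-fold lower, against 4.01% and 10.3% of all rows. Their median was 0.46, but it ran from 0.04 without OSM library 2 to 0.67 without EGF+OSM library 3, with 0.25 without OSM library 1, 0.29 without EGF+OSM library 1 and 0.23 without EGF+OSM library 2. CSF3, the granulocyte growth factor G-CSF (chr17:40015361-40017813, plus), rose from 9.81, 7.97 and 13.8 CPM to 63.3, 59.5 and 64.2 CPM (2.57 ± 0.17, adjusted p = 5.16e-11), against 0.766 CPM in PBS and 14.2 CPM in EGF on average. IL1A and IL1B, the interleukin-1 ligands, rose by 1.79 and 1.89, IL1B from 4.49, 4.92 and 6.24 CPM to 17.8, 18.9 and 21.2 CPM. Their natural antagonist IL1RN fell from 12.4, 17.1 and 15.7 CPM to 3.52, 5.68 and 3.74 CPM (-1.80 ± 0.32). None of these groups overlapped. CXCL3, a neutrophil chemokine, rose by 2.38 ± 0.21, from a mean of 0.817 to 4.26 CPM, while EGF alone left it at 0.782 CPM against 0.954 CPM in PBS (difference 2.66 ± 0.30, adjusted p = 1.76e-07). CXCL5 rose by 2.53 from a mean of 0.0967 CPM. CXCL10, an interferon-induced chemokine, was lower at a mean of 0.211 against 0.0601 CPM (-1.81 ± 0.67, adjusted p = 0.0221), a call that was lost without OSM library 2 (-1.17, adjusted p = 0.207) or EGF+OSM library 2 (-1.42, adjusted p = 0.105).

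The largest changes with levels of at least 5 CPM and no overlap went far beyond these lists. ADAMTS1, a secreted metalloproteinase that trims proteoglycans (chr21:26835755-26845409, minus), rose most, from 0.398, 0.509 and 0.594 CPM to 9.27, 8.59 and 10.6 CPM (4.23 ± 0.26, adjusted p = 8.14e-12). EGF alone took it to 2.46 ± 0.0152 CPM, and the difference of both effects was 1.09 ± 0.39 (adjusted p = 0.0316). FST, which encodes the activin trap follistatin (chr5:53480626-53487134, plus), rose from 0.711, 0.908 and 0.810 CPM to 7.15, 8.64 and 9.86 CPM (3.39 ± 0.25). The remaining rises by this rule were C13orf42 (2.86), NAV3 (2.58), IL13RA2 (2.47), RPE65 (2.28), SCGB3A2 (2.28), STAMBPL1 (2.21) and SH2D5 (2.17), beside AREG, CSF3 and SPRY4.

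The deepest fall was that of GJA1, which encodes the gap junction protein connexin 43 (chr6:121435595-121449727, plus): 15.6, 14.1 and 9.05 CPM with OSM and 0.135, 0.163 and 0.101 CPM with EGF+OSM (-6.56 ± 0.47, adjusted p = 1.96e-10). The EGF+OSM libraries thus lay below the PBS mean of 0.241 CPM. AMTN, which encodes the enamel protein amelotin (chr4:70518569-70532743, plus), fell from 67.9, 80.0 and 57.0 CPM to 0.677, 1.40 and 0.430 CPM (-6.32 ± 0.26, adjusted p = 2.09e-13), and on PBS by 1.32 from a mean of 1.37 CPM (difference -5.00 ± 0.60, adjusted p = 9.8e-07). CD36, the fatty acid receptor, fell by 5.61, the transcription factor MAF by 4.93 and PPARGC1A, the coactivator of mitochondrial biogenesis, by 4.79. For these 3 the difference from the effect on PBS did not pass the test (adjusted p = 0.101, 0.113 and 0.297). IP6K3 fell by 6.03 and PLCL1 by 4.56, and the list was completed by HP, FBXO32, DIO2, C1R and C1S. The lowest EGF+OSM counts of CD36, IP6K3 and PPARGC1A were 2, 5 and 7, so the sizes of their falls are uncertain too.

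Genes that respond to OSM were then chosen in other libraries: rows at least 4-fold changed between OSM+TGFB and TGFB, groups that share no library with the main comparison. Of 511 rows induced by OSM there, adding EGF to OSM lowered 202 (39.5%) and raised 156 (30.5%). By at least 2-fold it lowered 167 (32.7%) and raised 97 (19.0%), against 10.3% and 4.01% of all rows, with a median of -0.23. So OSM-induced genes moved both ways. Among those that fell were PLA2G2A, a secreted phospholipase (15.3, 13.7 and 5.59 CPM to 0.813, 0.931 and 0.531 CPM, -3.92 ± 0.36) and OLR1, a receptor for oxidised lipoprotein (6.54, 7.37 and 6.83 CPM to 0.434, 0.256 and 0.683 CPM, -3.92 ± 0.30). Among those that rose further were IL7R, the interleukin-7 receptor (2.90, 2.99 and 3.86 CPM to 13.3, 12.8 and 15.0 CPM, 2.07 ± 0.18) and PTHLH, a parathyroid hormone-like peptide (7.45, 5.05 and 7.05 CPM to 28.8, 26.2 and 26.3 CPM, 2.06 ± 0.17). Added to PBS, EGF raised 277 of the 511 OSM-induced rows and lowered 57 (median 1.22), against 33.8% and 37.0% of all rows.

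Rows that OSM lowered at least 4-fold on TGFB were lower again more often than higher, although 296 were not called. Of 577, 248 were lower with EGF+OSM (43.0%) and 33 higher (5.72%), 212 at least 2-fold lower (36.7%) and 15 at least 2-fold higher (2.60%), with a median of -1.07. EGF added to PBS lowered 479 of these 577 rows and raised 10, against 37.0% and 33.8% of all rows. KRT15, a basal keratin (chr17:41513745-41522529, minus), went from a PBS mean of 1580 CPM to 216, 206 and 76.5 CPM with OSM and 17.2, 15.3 and 10.1 CPM with EGF+OSM (-3.55 ± 0.38, adjusted p = 1.3e-07). SCNN1B, a subunit of the epithelial sodium channel, went from 36.7, 51.3 and 28.8 CPM to 4.99, 5.70 and 3.52 CPM (-3.04 ± 0.24), and ELF3, an epithelial ETS factor, from 66.9, 98.5 and 39.5 CPM to 11, 15.7 and 5.56 CPM (-2.66 ± 0.38). In the minority that rose, DKK1, a WNT inhibitor, went from 6.66, 9.19 and 7.56 CPM to 18.9, 18.7 and 23.6 CPM (1.38 ± 0.12), short of its PBS mean of 87.9 CPM. The groups of these 4 genes did not overlap.

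**Figure D3:**
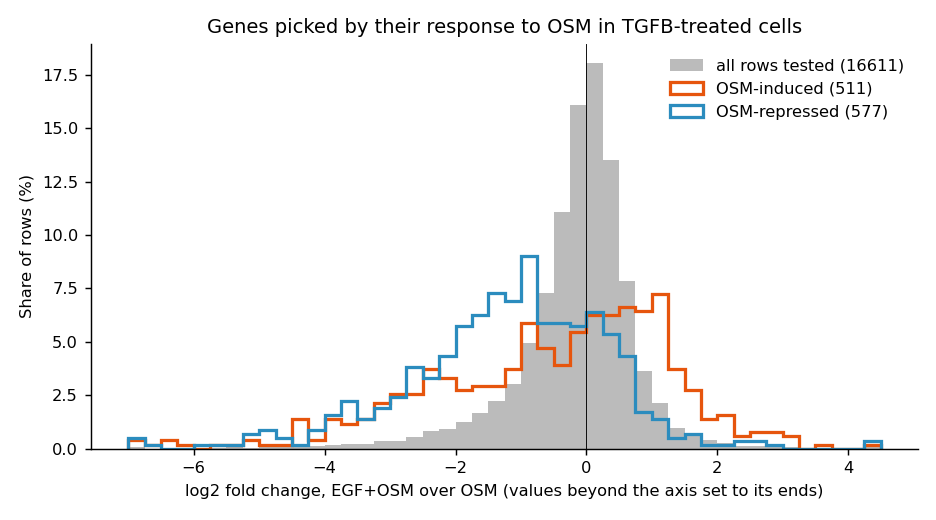
Share of rows (%) by log2 fold change of EGF+OSM over OSM, in bins, for all 16611 rows tested (grey), the 511 rows that OSM raised at least 4-fold in TGFB-treated cells (orange outline) and the 577 that it lowered (blue outline). The induced set spreads to both sides (median -0.23), and the repressed set is shifted to the left (median -1.07).

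How much of the response to EGF depended on OSM was tested as the difference between the EGF effect with and without it. Added to PBS, EGF changed 11762 rows, 33.8% of those tested higher and 37.0% lower, and 4486 by at least 2-fold, against 2374 with OSM. Both comparisons share no library. Of the 4771 rows higher with OSM, 3959 were also higher without it (83.0% of these, and 70.6% of the rows higher without OSM), 193 were lower and 619 were not called. Of the 5103 lower with OSM, 4045 were also lower without it (79.3%, and 65.7% of the rows lower without OSM), 318 were higher and 740 not called. Across all rows the log2 fold changes correlated at r = 0.628, a description over genes, which are not independent replicates. The difference itself passed the test in 6061 rows, 36.5%.

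Proliferation genes were the lists with the largest differences. EGF raised the DNA replication list by a median of 3.39 on PBS and by 1.2 on OSM, and the difference was called lower in 22 of 23 genes. The mitosis list rose by 4.16 on PBS and by 0.94 on OSM, with all 24 differences called lower. Levels at the end were close: MCM10 averaged 53.0 CPM with EGF and 65.1 CPM with EGF+OSM, and MKI67 519 and 634 CPM, while their start was 0.952 and 21.5 CPM in PBS against 18.8 and 309 CPM in OSM. For the ERK list the medians were 1.79 and 1.34, with 12 of 20 differences called lower and 0 higher. For the starvation list they were -1.94 and -1.64, with 8 of 20 differences called higher and 0 lower. For the acute-phase list they were -1.82 and -2.72, with 7 of 23 called lower and 0 higher. Those 7 included SERPINA1, LRG1 and C1R. Of all 16611 rows, the difference was called higher in 2423 and lower in 3638, together 36.5%. For SERPINA3, SAA1, SAA2 and C3 the difference did not pass the test ( 0.35 ± 0.44, 0.08 ± 0.27, -0.16 ± 0.37 and 0.02 ± 0.23).

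**Figure D4:**
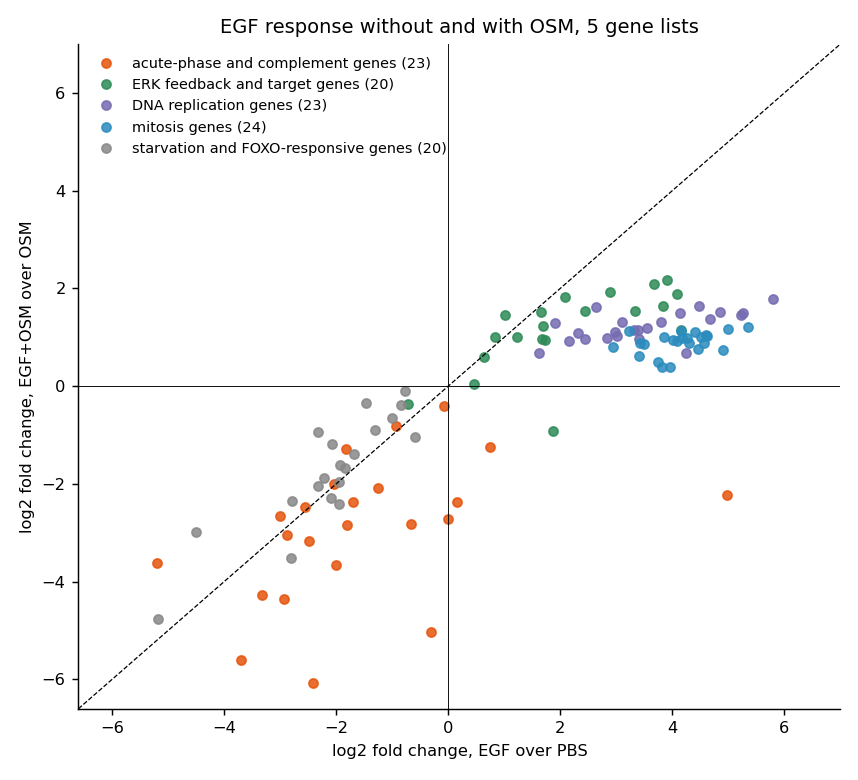
Log2 fold change of EGF over PBS (horizontal) against that of EGF+OSM over OSM (vertical) for the tested members of 5 gene lists, 3 libraries a group, with the line of equal effects dashed. Replication and mitosis genes lie below the line at the right, with medians of 3.39 and 4.16 on PBS against 1.2 and 0.94 on OSM. The acute-phase point far right of 0 is FGG, listed at 0 in every PBS library, so its horizontal place is no estimate.

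The effect of EGF had opposite signs with and without OSM in 511 rows where the difference was also called: 193 were higher with OSM and lower without, and 318 the reverse. In 44 of them both effects were at least 2-fold. FN1 was among these. EGF raised it from 144, 111 and 141 CPM in PBS to 722, 707 and 514 CPM (2.30), and lowered it on OSM as given above, a difference of -4.52 ± 0.26 (adjusted p = 2.89e-11). TREM1, a myeloid receptor that amplifies inflammation (chr6:41267926-41286682, minus), rose from a mean of 0.247 to 2.4 CPM on PBS and fell from 30.6, 24.3 and 22.2 CPM to 9.62, 9.38 and 6.40 CPM on OSM (-1.60 ± 0.23, difference -4.89 ± 0.46). The osteoblast factor RUNX2 rose by 2.33 on PBS and fell by 1.11 on OSM, from 8.59, 6.6 and 7.02 CPM to 3.41, 3.24 and 3.62 CPM. The integrin chain ITGB3 rose by 2.58 and fell by 1.86, the protease ADAMTS15 rose by 1.33 and fell by 2.20, and the gelatinase MMP9 rose by 1.97 and fell by 1.15. The choice of these genes fixed that EGF lay above PBS and EGF+OSM below OSM. It also asked for at least 5 CPM in the highest of PBS, EGF, OSM and EGF+OSM, which RUNX2 and ITGB3 reached only with OSM. OSM alone was above PBS in each except MMP9 (3.56 against 6.20 CPM), which the choice favoured, so it is no separate result.

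The largest differences were picked by size among genes with at least 5 CPM in any of PBS, EGF, OSM and EGF+OSM. That choice favours genes that OSM or EGF alone had driven to an extreme, so this trait of the genes below is no separate result. KDR, which encodes the endothelial growth factor receptor VEGFR2 (chr4:55078481-55125595, minus), stood at 28.6, 31.2 and 30.7 CPM in PBS and at 0.736, 0.999 and 0.880 CPM in EGF. With OSM it was 1.76, 1.53 and 1.27 CPM and with EGF+OSM 1.79, 1.91 and 1.67 CPM, overlapping groups (0.24 ± 0.17, adjusted p = 0.235, difference 5.34 ± 0.23). ETNK2, an enzyme of phospholipid synthesis, fell on PBS from a mean of 147 to 2.85 CPM and on OSM from 5.20, 7.91 and 5.94 CPM to 1.17, 1.35 and 1.57 CPM (-2.23 ± 0.20, difference 3.46 ± 0.29). COL6A3, a collagen VI chain (chr2:237324003-237414328, minus), rose on PBS from a mean of 0.571 to 47.9 CPM, but was at 34.4, 24.4 and 45.1 CPM with OSM and 33.1, 26.4 and 26.5 CPM with EGF+OSM. Those groups overlapped (-0.27 ± 0.18, adjusted p = 0.199, difference -6.66 ± 0.34). Without OSM library 2 the value was -0.45 and passed the test (adjusted p = 0.0224), and without OSM library 3 it was 0.0055.

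With TGFB on both sides, most of the acute-phase, starvation and replication genes moved in the direction they took without it. Added to OSM+TGFB, EGF raised 25.2% of rows and lowered 24.9%. Of the 4771 rows higher on OSM, 3290 were also higher there (69.0%, and 78.5% of the rows higher there), and of the 5103 lower, 3360 were also lower (65.8%, and 81.3%). These comparisons share no library. The difference passed the test in 2522 rows, 15.2%, a count that fell to 1454 without EGF+OSM library 3. Acute-phase genes fell with TGFB too, 19 of 23 with a median of -2.28 and 0 differences called, and so did 17 of 20 starvation genes (median -1.17), with 1 difference called higher and 6 lower. DNA replication genes rose in 23 of 23 (median 1.24, 0 differences called). Of the 24 interferon genes, 7 were lower there (median -0.11), and the difference was called in 1. DUSP6, which rose by 1.15 on OSM, had a log2 fold change of 0.09 on OSM+TGFB (adjusted p = 0.674), and the difference was 1.06 ± 0.23 (adjusted p = 0.00451). FST had 0.17 in place of 3.39 (difference 3.22 ± 0.34, adjusted p = 1.99e-06) and OSMR -0.11 in place of -0.60 (difference -0.49 ± 0.10, adjusted p = 0.00192). DKK1 rose by 1.38 on OSM and fell by 1.14 on OSM+TGFB, a difference of 2.51 ± 0.18 (adjusted p = 9.86e-09).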

How the data were processed

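Poly(A) RNA of MCF10A cells was sequenced from 27 libraries in 9 groups of 3, made with a stranded TruSeq kit, per the labels' protocols. The authors deposited a table of estimated counts per gene for all libraries, whole numbers in the file. Their processing notes list Trim Galore 0.4.3, cutadapt 1.10, FastQC 0.11.5, kallisto 0.46.2 and R 3.5.0, with builds GRCh38.p5 and hg38, and the gene annotation is not given in the sources used here. kallisto divides reads among similar transcripts, so values of near-identical genes are uncertain.

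Of 40487 rows, 13156 were 0 throughout and 16611 passed edgeR's filter on low counts. The rows were fitted with edgeR 4.0.16 in R 4.3.3 (limma 3.58.1): TMM scaling, a prior count of 0.125, robust quasi-likelihood fit of all 27 libraries with 9 group means and 18 residual degrees of freedom, and a biological coefficient of variation of 10.1%. Rows with a Benjamini-Hochberg adjusted p under 0.05 over all rows were called. Errors of log2 fold changes are standard errors, taken as the fold change divided by the square root of F. The fit was tested on simulated data. Alternatives were DESeq2 1.42.0, upper-quartile scaling, no filter, only the 6 libraries, summed rows of a symbol, a replicate block, and each library left out.

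Named genes were the 12 highest and 12 lowest changes among called protein-coding rows of at least 5 CPM whose groups did not overlap, the 2 highest and 2 lowest called members of each list, the 6 highest and 6 lowest differences between the EGF effects with and without OSM, and EGFR, OSMR, IL6ST, STAT3, SOCS3, DUSP6, SPRY4, MYC, MKI67, KRT5, KRT14, TP63 and CDH1. Other genes named, among them list members without a call and examples of opposite or OSM-responsive genes, were chosen after their values were seen. The lists and members were chosen with earlier results of these data known. Gene spans are GENCODE v44 by Ensembl ID. Some members of the lists are not reported here by name.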

Additional observations from a re-analysis of the deposited data

Results flagged for a closer look

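The effect of EGF differed between cells with and without OSM in 6061 rows by edgeR's test of the difference itself, and between cells with OSM and with OSM+TGFB in 2522 rows. The 6 largest positive and 6 largest negative differences among genes of at least 5 CPM are given as values (EGF effect with OSM minus that without, log2).

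On the positive side, all 6 genes fell steeply when EGF was added to PBS and were already low with OSM. They were the microtubule-associated MAP7D2 with 6.42 ± 1.04, the growth factor receptor KDR with 5.34 ± 0.23, the channel gene BEST2 with 4.94 ± 1.00, the metalloproteinase MMP7 with 4.64 ± 0.54, the semaphorin SEMA6D with 3.97 ± 0.55 and ETNK2 with 3.46 ± 0.29. MAP7D2, for example, averaged 12.4 CPM in PBS, 0.0919 CPM in EGF, 0.154 CPM in OSM and 0.0989 CPM in EGF+OSM. MMP7 averaged 39.3, 0.675, 1.31 and 0.556 CPM in the same order. Of the 6, all but ETNK2 reached 5 CPM only in PBS, so low levels in the other groups were partly set by the choice.

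On the negative side, TNFRSF6B, which encodes a decoy receptor for FAS ligand, had -10.23 ± 1.08. It was listed at 0 in all PBS libraries, so this fitted value depends on the prior count. It stood at 29.5, 24.5 and 37.7 CPM with OSM and 78.1, 67.2 and 59.3 CPM with EGF+OSM, groups that did not overlap. SCG5 had -7.55 ± 0.55, COL6A3 -6.66 ± 0.34, MMP3 -6.53 ± 1.18 (1 count in all PBS libraries) and MMP10 -6.22 ± 0.79. TMEM265 had -7.36 ± 2.69 (adjusted p = 0.0403). It was listed at 0 in all EGF+OSM libraries and at 0, 3.59 and 3.38 CPM with OSM, so its fitted value is no estimate of size.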

How the results depend on the processing

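Requiring at least a 2-fold change besides the call left 2374 rows for EGF added to OSM (666 higher, 1708 lower), 4486 for EGF added to PBS, 1639 and 312 for the differences from the EGF effect on PBS and on OSM+TGFB, 1815 for EGF added to OSM+TGFB and 2677 for OSM added to TGFB. The count of 2522 rows for the OSM+TGFB difference ran from 1454 (without EGF+OSM library 3) to 3500 (with a replicate block). Without OSM library 3 it was 3380. Of the named-gene values, 1261 kept direction and call, 28 lost the call, 5 gained one and 9 changed sign, none of the 9 called in the fit reported. Leaving out 1 library moved the log2 fold change on OSM from -1.246 to 0.068 for MAP7D2, -0.147 to 0.882 for BEST2, -0.061 to 0.544 for SCG5, -0.452 to 0.0055 for COL6A3 and -0.05 to 0.046 for EGFR. EGFR was 0.0019 with DESeq2, and IL6ST and MYC were -0.015 and -0.00031 with upper-quartile scaling. The cause was not tested. The call for the TMEM265 difference was lost in 10 alternatives. Without OSM library 2 the medians of the ERK, other STAT3 target and class I lists were 1.232, -0.745 and -0.589. Without OSM library 3 those of the ERK, cholesterol and ribosome biogenesis lists were 1.519, 0.632 and 0.682.

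Libraries with the same replicate number in OSM and EGF+OSM deviated together only weakly (r = 0.035, 0.0817 and 0.135, each the highest for its EGF+OSM library), and not every pair was over 0.1, so the number was not taken as a pairing. With it as a replicate block, 10136 rows were called for EGF added to OSM, 11947 on PBS, 8753 on OSM+TGFB, 6760 and 3500 for the differences, and 9457 for OSM added to TGFB.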
